A study of Mus musculus with 12 samples.

Results

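The transcription factors that set the identity of the stomach lining were followed in mouse fundic mucosa with and without gastrin. The set was every probe set (a group of short probes for 1 transcript) whose gene symbol was Gata4, Gata6, Foxa2, Foxa3, Sox2, Klf4, Klf5 or Barx1, taken by symbol. All 8 genes were on the array, with 12 of the 22626 probe sets tested: 2 each for Gata4, Gata6, Klf4 and Klf5 and 1 each for the other 4 genes. Mucosa scraped from the fundus, the acid-secreting part of the stomach, gave total RNA that was hybridised to 12 one-colour arrays, 3 in each of 4 groups. The groups were mice lacking both gastrin and cholecystokinin (gastrin-CCK double knockout), gastrin knockout mice infused with gastrin, gastrin knockout mice infused with saline, and wild-type mice. Each infusion lasted 1 week, and neither the double-knockout nor the wild-type mice were described as infused. The labels give an age (2 months) and a sex (male) only for saline-infused knockouts, and no strain or dose. Wild-type RNA came from a pool of a few mice per sample, and the labels do not say that samples of a group were separate animals, so p-values measure only the spread between samples, which may be technical.

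Gastrin is the hormone of the gastric antrum that drives acid secretion and the growth of the fundic mucosa, and CCK is a related gut peptide that shares a receptor with it. GATA, FOXA, SOX and Krüppel-like (KLF) proteins bind DNA and specify the foregut and then the gastric epithelium in the embryo. Several stay on in the adult stomach, where they are known from work on its epithelial stem and mature cells. Barx1 is different in kind: it is a homeobox factor of the mesenchyme under the epithelium, which represses Wnt signalling during stomach development in the mouse.

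The groups were checked on the gastrin gene itself. Gast intensities lay between -162 and -35 in the double knockout, between -72 and -34 in knockouts given gastrin and between -8 and 37 in knockouts given saline, against 318 to 823 in wild type. Hdc, the histamine-forming enzyme of enterochromaffin-like cells and a known target of gastrin, read 1133 to 1897 after gastrin infusion and 22 to 212 after saline. Array medians were 403 to 421, within-group correlations of log2 values 0.955 to 0.973, and the noise level of an array (its lowest percentile of intensity with the sign turned) 67 to 96. Every value of every member was above that noise, the lowest being 228. The 3 double-knockout arrays had a compressed upper range, with a 99th percentile of 17247 to 18952, against 19778 to 23927 on the other 9. The marker lists of parietal, chief and surface mucous cells each summed to 150049 or more on every array, and the intestinal factors Cdx1 and Cdx2 stayed within the noise on all 12 arrays.

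Sox2, the SRY-box factor of foregut and gastric progenitor cells, was the 1 member whose arrays separated by the presence of gastrin, made by the mouse or infused. Its probe set (1416967_at) read 466, 449 and 502 in the double knockout, 279, 289 and 228 in knockouts given gastrin, 429, 422 and 444 in knockouts given saline, and 300, 239 and 300 in wild type. All 6 arrays without gastrin were above all 6 arrays with it, and the gap lay between 300 and 422. The share of all probe sets that separate in this way is not given here, and Ehf, described below, separated likewise. Nor is that share given for 1 group lying apart from all others, as described below for Gata6, Gata4, Klf4 and Klf5. The group means were 472 ± 27.1 in the double knockout, 265 ± 32.7 in knockouts given gastrin, 432 ± 11.2 in knockouts given saline and 280 ± 35.2 in wild type (SD, n = 3 each). In bulk tissue, fewer cells of a type and less RNA per cell cannot be told apart. Sox2 was a dim probe set, at percentile 46.4 of the mean levels of all probe sets.

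Sox2 rose in knockouts given saline against wild type by 0.63 ± 0.12 on the log2 scale (SE), which is 1.55-fold with a 95% interval of 1.29 to 1.86 (limma, adjusted p = 0.0326). It fell with gastrin against saline infusion by 0.71 ± 0.12 on the log2 scale, to 0.612 of the saline level with a 95% interval of 0.51 to 0.733 (limma, adjusted p = 0.0316). In the double knockout against wild type it rose 1.70-fold, with a 95% interval of 1.42 to 2.03 (log2 0.76 ± 0.12, limma adjusted p = 0.0131). Among the 12 member probe sets it was the only one called in the first 2 of these comparisons, in which 2.08% and 1.25% of all 22626 probe sets were called. Set as 1 contrast, the mean of both groups without gastrin was 1.67-fold that of both groups with it, with a 95% interval of 1.47 to 1.89 (log2 0.74 ± 0.08, limma adjusted p = 0.00439).

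Along the order of Sox2 levels, the neighbours were not separated by the test. The double knockout differed from knockouts given saline by 0.13 on the log2 scale with a 95% interval of -0.13 to 0.39 (limma, adjusted p = 0.592), although its lowest array, 449, was just above the highest saline array, 444. Knockouts given gastrin differed from wild type by -0.08, with a 95% interval of -0.34 to 0.19 (limma, adjusted p = 0.858), and these groups overlapped.

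The Sox2 calls that rested on 1 comparison of infused mice were near the threshold. Against wild type, the rise in knockouts given saline was no longer called without any 1 wild-type array (log2 0.69, 0.52 and 0.69, adjusted p = 0.0529, 0.0833 and 0.0578 without arrays 1, 2 and 3), without any 1 saline array (log2 0.64, 0.65 and 0.61, adjusted p = 0.0924, 0.0781 and 0.0838) or without double-knockout array 1 (log2 0.63, adjusted p = 0.054). With the 3′ to 5′ ratio of Gapdh, a measure of RNA quality, as a covariate it was 0.51 ± 0.12 (limma, adjusted p = 0.126). That ratio was 1.51, 2.0 and 0.983 on the wild-type arrays and 1.01 to 1.18 on the saline arrays. The fall with gastrin infusion was no longer called without any 1 saline array (log2 -0.71, -0.73 and -0.69, adjusted p = 0.0826, 0.068 and 0.0759) or any 1 gastrin array (log2 -0.75, -0.77 and -0.6, adjusted p = 0.0657, 0.0626 and 0.0706). The contrast of both groups without gastrin against both with it was called in all 12 fits that left out an array, at adjusted p 0.00775 to 0.0154, and the rise in the double knockout against wild type likewise, at 0.013 to 0.0427 (limma).

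**Figure D1:**
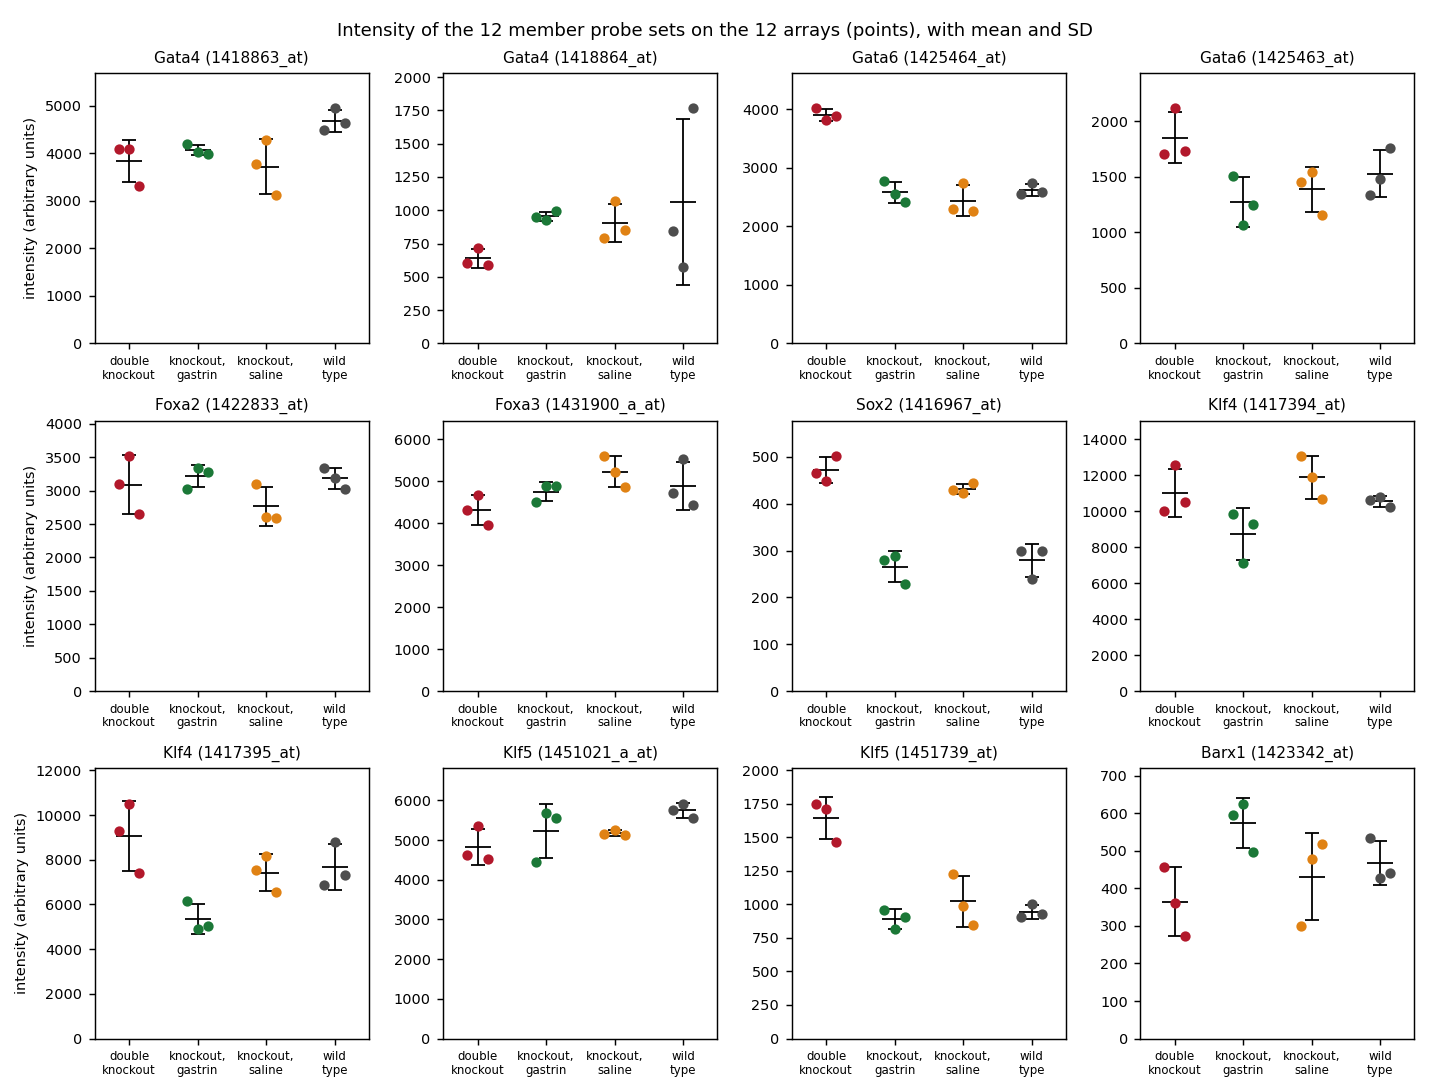
Deposited intensity (arbitrary units) of each member probe set on each of the 12 arrays, by group, with points for arrays, horizontal lines for group means and error bars for the SD. For Sox2 the 6 arrays without gastrin, at 422 to 502, all lie above the 6 with gastrin, at 228 to 300, and for Gata6 1425464_at the 3 double-knockout arrays, at 3815 to 4016, lie above the other 9.

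Sox2 is also expressed in squamous epithelium, which lines the mouse forestomach next to the fundus, so squamous markers were read on the same arrays. Of 16 squamous markers 15 were measured, and Ivl was within the noise on all 12 arrays. In the groups without gastrin against those with it 13 of the 15 were above 0, with a median log2 difference of 0.94, against 0.0 over all probe sets. In knockouts given saline against wild type 13 were likewise above 0, with a median of 0.96. For the double knockout against wild type 10 were above 0, with a median of 0.38.

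The summed intensity of the squamous markers was 55694, 14839 and 65180 in the double knockout, 14370, 38440 and 14590 after gastrin infusion, 72201, 29420 and 79389 after saline infusion, and 41337, 24789 and 22970 in wild type. The sums overlapped between groups, and the highest 4 were on arrays without gastrin. Ly6d, a surface protein of squamous cells, read 2077 to 3280 in the double knockout, 1046 to 1870 after gastrin infusion, 3787 to 4627 after saline infusion and 1698 to 2308 in wild type. It was the 1 squamous marker called in the groups without gastrin against those with it, at 1.01 ± 0.17 (limma, adjusted p = 0.0166). Sprr1a averaged 7802 in the double knockout, 8028 after gastrin infusion, 16078 after saline infusion and 14010 in wild type. It was called lower in the double knockout than after saline infusion (-1.04 ± 0.24, limma adjusted p = 0.0395). Its wild-type readings, 13171 to 14813, were a large part of the wild-type sums. Slurp1, a secreted protein of squamous epithelium, averaged 758 in the double knockout, 509 after gastrin infusion, 1647 after saline infusion and 632 in wild type, and with Ly6d it was called lower with gastrin against saline infusion (-1.76 ± 0.34 for Slurp1, limma adjusted p = 0.0468). Krt13, a keratin of squamous epithelium, read 4929, 547 and 4986 in the double knockout, 301, 2822 and 485 after gastrin infusion, 5391, 1171 and 4370 after saline infusion, and 1453, 666 and 462 in wild type. Trp63, the master factor of squamous basal cells, was -0.92 ± 0.28 in the groups without gastrin against those with it (limma, adjusted p = 0.102). Its brightest probe set read 36 to 89 in the double knockout, 171 to 198 after gastrin infusion, 88 to 170 after saline infusion and 100 to 184 in wild type. On the double-knockout arrays these readings were near the noise: 87, 36 and 89, against noise levels of 74, 67 and 85.

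The sum of parietal markers, 8 measured of 9, moved the other way. It was 150049 to 160831 in the double knockout, 228115 to 236513 after gastrin infusion, 160164 to 191797 after saline infusion and 214917 to 256117 in wild type. In the groups without gastrin against those with it, 7 of the 8 were called lower. Car2, a bright 1 of the 8, averaged 59372 after saline infusion and 53025 in wild type. The upper range was compressed on the double-knockout arrays, where chief and surface mucous sums were lower too. They averaged 155495 and 241745 there, against 236942 and 357658 in wild type. The part of squamous and parietal tissue in the Sox2 result was not tested.

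**Figure D2:**
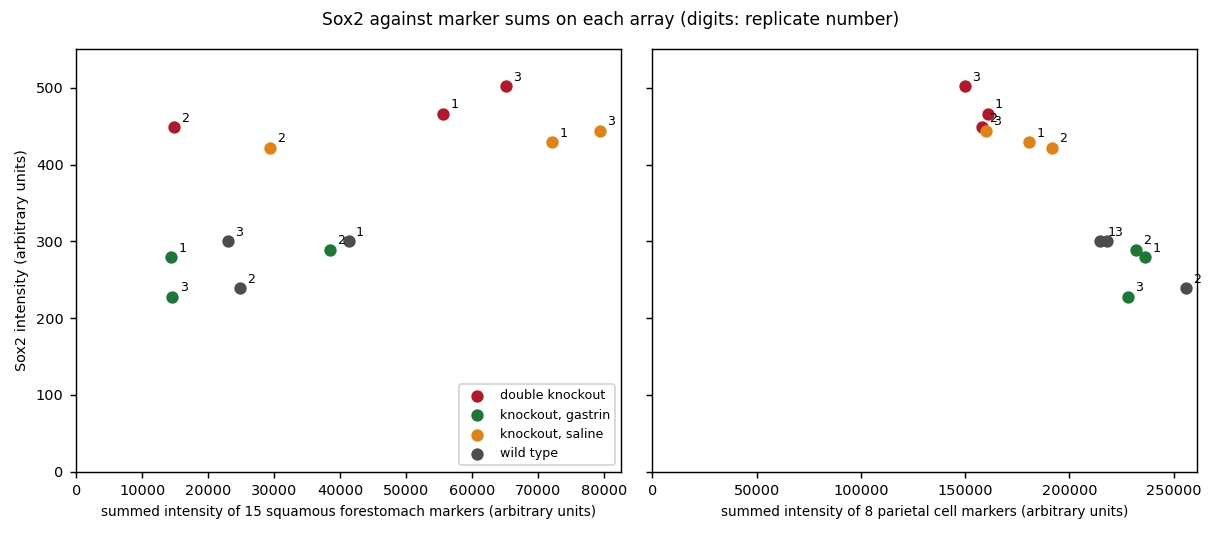
Sox2 intensity (vertical axis, arbitrary units) on each array against the summed intensity of squamous markers and of parietal markers (horizontal axes, arbitrary units), coloured by group and numbered by replicate. Arrays without gastrin, at Sox2 values of 422 to 502, have squamous sums of 14839 to 79389 and parietal sums of 150049 to 191797, and arrays with gastrin, at 228 to 300, have squamous sums of 14370 to 41337 and parietal sums of 214917 to 256117.

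The Sox2 gene is transcribed inside Sox2ot, a long non-coding RNA gene, in the RefSeq annotation, and whether the probes separate the transcripts is not given in the sources used here. The 250 bases before the Sox2 start are shown because Sox2 was called in 3 of the 5 pairs of groups compared. They lie at chr3:34649745-34649994 on the plus strand of GRCm38.p6, from RefSeq, and capitals mark GC boxes (GGGCGG, or CCGCCC on the other strand) and a SOX core (ACAAAG).
Sox2: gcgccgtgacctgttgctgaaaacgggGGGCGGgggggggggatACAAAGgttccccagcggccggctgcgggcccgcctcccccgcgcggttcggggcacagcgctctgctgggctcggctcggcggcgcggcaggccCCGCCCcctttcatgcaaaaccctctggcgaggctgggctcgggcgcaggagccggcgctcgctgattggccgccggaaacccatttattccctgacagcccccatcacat
The window holds 2 GC boxes and 1 SOX core, and its GC content is 72.0%, against a median of 52.4% over 32851 promoter windows of that length. A GC box was found on either strand in 32.7% of those windows and a SOX core in 16.5%. None of 4 other short motifs occurs in this window on either strand. They were AGATAA, read by zinc-finger factors of the Gata family and found in 9.99% of windows, and the box CCACCC of KLF proteins, found in 28.1%. The forkhead core TGTTTAC was found in 3.17% of windows and the TATA box, searched as TATAAA, in 12.4%.

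The GATA factors are zinc-finger proteins of the endoderm, and in the rat and pig stomach GATA proteins have been reported to bind the promoters of the proton pump genes. Gata6 was high in the double knockout alone. Its brighter probe set (1425464_at) read 4016, 3815 and 3893 in the double knockout, 2780, 2549 and 2414 after gastrin infusion, 2306, 2748 and 2264 after saline infusion, and 2551, 2748 and 2585 in wild type. The 3 double-knockout values lay above all 9 others, which overlapped one another. Against wild type Gata6 rose 1.49-fold, with a 95% interval of 1.30 to 1.71 (log2 0.57 ± 0.09, limma adjusted p = 0.0133), and against knockouts given saline 1.61-fold, with a 95% interval of 1.40 to 1.84 (log2 0.69 ± 0.09, limma adjusted p = 0.00517). Both Gata6 calls held in all 12 fits that left out an array. In knockouts given saline against wild type the Gata6 difference was -0.11 with a 95% interval of -0.31 to 0.09 (limma, adjusted p = 0.55).

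The dimmer Gata6 probe set (1425463_at) read 1711, 2117 and 1734 in the double knockout, 1510, 1063 and 1245 after gastrin infusion, 1457, 1549 and 1158 after saline infusion, and 1341, 1485 and 1757 in wild type. It ran with the brighter one (r = 0.73 over 12 arrays) but did not pass the test, at 0.28 ± 0.17 against wild type (limma, adjusted p = 0.412) and 0.42 ± 0.17 against knockouts given saline (limma, adjusted p = 0.186). Gata6 overlaps Gata6os, a non-coding gene on the RefSeq map, which limits what either probe set alone can be credited with.

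Gata4 did not pass the test in any comparison. Its brighter probe set (1418863_at) read 4087, 4089 and 3324 in the double knockout, 4190, 4035 and 3988 after gastrin infusion, 3771, 4288 and 3116 after saline infusion, and 4487, 4947 and 4637 in wild type. The 3 wild-type arrays were above all 9 others. The difference was -0.30 ± 0.12 for the double knockout against wild type (limma, adjusted p = 0.226) and -0.34 ± 0.12 for knockouts given saline against wild type (limma, adjusted p = 0.19). The second Gata4 probe set (1418864_at) had a wide wild-type spread (846, 572 and 1764), read 592 to 718 in the double knockout, and correlated with the first at r = 0.23 over 12 arrays. With the Gapdh ratio as a covariate this probe set was called at -0.79 ± 0.14 in the double knockout against wild type (limma, adjusted p = 0.0288), against -0.58 ± 0.34 and an adjusted p of 0.397 without it.

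The forkhead factors Foxa2 and Foxa3 open chromatin in endoderm-derived tissues. Neither passed the test in any comparison. Foxa2 (1422833_at) read 2644 to 3520 in the double knockout, 3029 to 3338 after gastrin infusion, 2596 to 3106 after saline infusion and 3029 to 3344 in wild type, so all groups overlapped. Its difference was -0.05 with a 95% interval of -0.31 to 0.20 in the double knockout against wild type. Foxa3 (1431900_a_at) read 3947 to 4665 in the double knockout, 4490 to 4882 after gastrin infusion, 4865 to 5595 after saline infusion and 4423 to 5520 in wild type. Its widest difference between 2 groups was -0.28 ± 0.10 in the double knockout against knockouts given saline (limma, adjusted p = 0.149). Foxa2 and Foxa3 were among the least variable members, with a highest array 1.36 and 1.42 times the lowest.

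Klf4 is a factor of differentiating surface epithelium, and its loss in the mouse stomach disturbs mucous cell differentiation. Its probe sets lay at percentiles 97.5 and 96.2 of the mean levels of all probe sets. Probe set 1417394_at read 9992, 12545 and 10478 in the double knockout, 9833, 7117 and 9266 after gastrin infusion, 13058, 11869 and 10695 after saline infusion, and 10619, 10777 and 10202 in wild type. Probe set 1417395_at read 9274, 10518 and 7411 in the double knockout, 6140, 4900 and 5026 after gastrin infusion, 7524, 8188 and 6581 after saline infusion, and 6853, 8819 and 7328 in wild type. In both, the 3 arrays of gastrin-infused mice were below the other 9.

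These Klf4 differences did not pass the test. Against saline infusion, gastrin infusion gave -0.45 ± 0.14 and -0.47 ± 0.16 (limma, adjusted p = 0.148 and 0.185), and against wild type -0.28 ± 0.14 and -0.52 ± 0.16 (limma, adjusted p = 0.472 and 0.277). After quantile normalization, and also after cyclic loess or under a filter at the median level, the dimmer probe set was called in the contrast of groups without gastrin against those with it, at 0.40 ± 0.08 after quantile normalization (limma, adjusted p = 0.022), against 0.35 ± 0.11 and 0.112 on the deposited scale.

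Klf5, a factor of proliferating epithelial cells, gave unlike answers from its 2 probe sets. Probe set 1451739_at read 1751, 1712 and 1461 in the double knockout, 955, 813 and 904 after gastrin infusion, 1229, 987 and 849 after saline infusion, and 902, 1003 and 926 in wild type. The 3 double-knockout arrays stood above the other 9. This probe set rose 1.74-fold against wild type, with a 95% interval of 1.40 to 2.15 (log2 0.80 ± 0.14, limma adjusted p = 0.0189), and 1.62-fold against knockouts given saline, with a 95% interval of 1.31 to 2.00 (log2 0.70 ± 0.14, limma adjusted p = 0.022).

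The brighter Klf5 probe set (1451021_a_at) read 4617, 5345 and 4511 in the double knockout, 4436, 5685 and 5555 after gastrin infusion, 5145, 5251 and 5130 after saline infusion, and 5753, 5918 and 5561 in wild type. Here the double-knockout arrays were below wild type, at -0.26 ± 0.10 (limma, adjusted p = 0.213), and the 2 probe sets correlated at r = -0.49 over 12 arrays. Which of them follows Klf5 messenger RNA better was not tested. The call against wild type was lost without wild-type array 1 or 3 (log2 0.76 and 0.78, adjusted p = 0.0618 and 0.055) or double-knockout array 1 (log2 0.75, adjusted p = 0.0628). The call against knockouts given saline was lost without saline array 2 or 3 (log2 0.68 and 0.57, adjusted p = 0.0675 and 0.0509) or double-knockout array 1 or 2 (log2 0.65 and 0.66, adjusted p = 0.0803 and 0.0609).

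Barx1 (1423342_at) read 458, 360 and 274 in the double knockout, 596, 626 and 498 after gastrin infusion, 299, 477 and 518 after saline infusion, and 534, 429 and 440 in wild type. No comparison passed the test. The contrast of groups without gastrin against those with it was -0.41 ± 0.17 (limma, adjusted p = 0.21), and the double knockout against wild type gave -0.39 with a 95% interval of -0.93 to 0.16. The sum of 12 stromal and muscle markers moved the same way, at 10063 to 16825 in the double knockout, 20463 to 39225 after gastrin infusion, 11338 to 21203 after saline infusion and 19249 to 22565 in wild type. The part of stromal content in the Barx1 values was not tested.

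Over the 12 member probe sets, 3 passed the test in the double knockout against wild type, all higher (Sox2, Gata6 and 1 of 2 for Klf5), where 4.14% of all probe sets were called and 2.02% were called higher. In the double knockout against knockouts given saline 2 passed, both higher (Gata6 and 1 of 2 for Klf5), where 5.98% of all were called and 3.22% higher. In the groups without gastrin against those with it 2 passed (Sox2 and 1 of 2 for Klf5), where 4.58% of all were called. That Klf5 difference was 0.49 ± 0.10 (limma, adjusted p = 0.0276), with saline and wild-type arrays overlapping, and it was called in 5 of 12 fits that left out an array (highest adjusted p = 0.0627). In knockouts given gastrin against wild type 0 passed by limma, where 0.11% of all were called. At an unadjusted p under 0.05 that comparison had 1 member probe set (of Klf4), against 11.6% of all probe sets. None of the other settings tried called any member there. These comparisons share arrays, so their calls are not separate pieces of evidence.

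The median absolute log2 difference of the members was 0.29 in the double knockout against wild type, against 0.24 over all probe sets and 0.19 over probe sets at or above the median level, where all members but Sox2 lie. It was 0.26 in the double knockout against knockouts given saline, against 0.25 over all and 0.20 over the brighter ones. In knockouts given saline against wild type it was 0.14, against 0.23 and 0.18. It was 0.16 for gastrin against saline infusion, against 0.21 and 0.16, and 0.11 for knockouts given gastrin against wild type, against 0.19 and 0.14. In the groups without gastrin against those with it the members' median was 0.25, against 0.18 over all and 0.14 over the brighter ones. The members' median was thus above both in the 2 double-knockout comparisons and in this contrast, and at or below both in the other comparisons given.

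The test of any difference among the 4 groups was passed by Sox2 (limma F test, adjusted p = 0.00871), Gata6 1425464_at (0.00958) and Klf5 1451739_at (0.0186), where 7.7% of all probe sets passed.

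Whether the double knockout differed from wild type by more than saline differed from gastrin infusion was tested as a difference of differences. For Gata6 1425464_at it was 0.66 ± 0.12 (limma, adjusted p = 0.0537), and for Klf5 1451739_at 0.61 ± 0.19 (limma, adjusted p = 0.172). For Sox2 it was 0.05 with a 95% interval of -0.32 to 0.42 (limma, adjusted p = 0.927). No member passed here, where 0.8% of all probe sets were called. An unadjusted p under 0.05 was found for 2 of 12 member probe sets, against 15.3% of all probe sets. The Gata6 value was called after quantile normalization (log2 0.71, adjusted p = 0.0278) and without saline array 2 (log2 0.75, adjusted p = 0.0474). The pairs of groups in this contrast differ in the loss of CCK, in infusion and in whether gastrin was made by the mouse or infused, and these cannot be told apart in it.

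**Figure D3:**
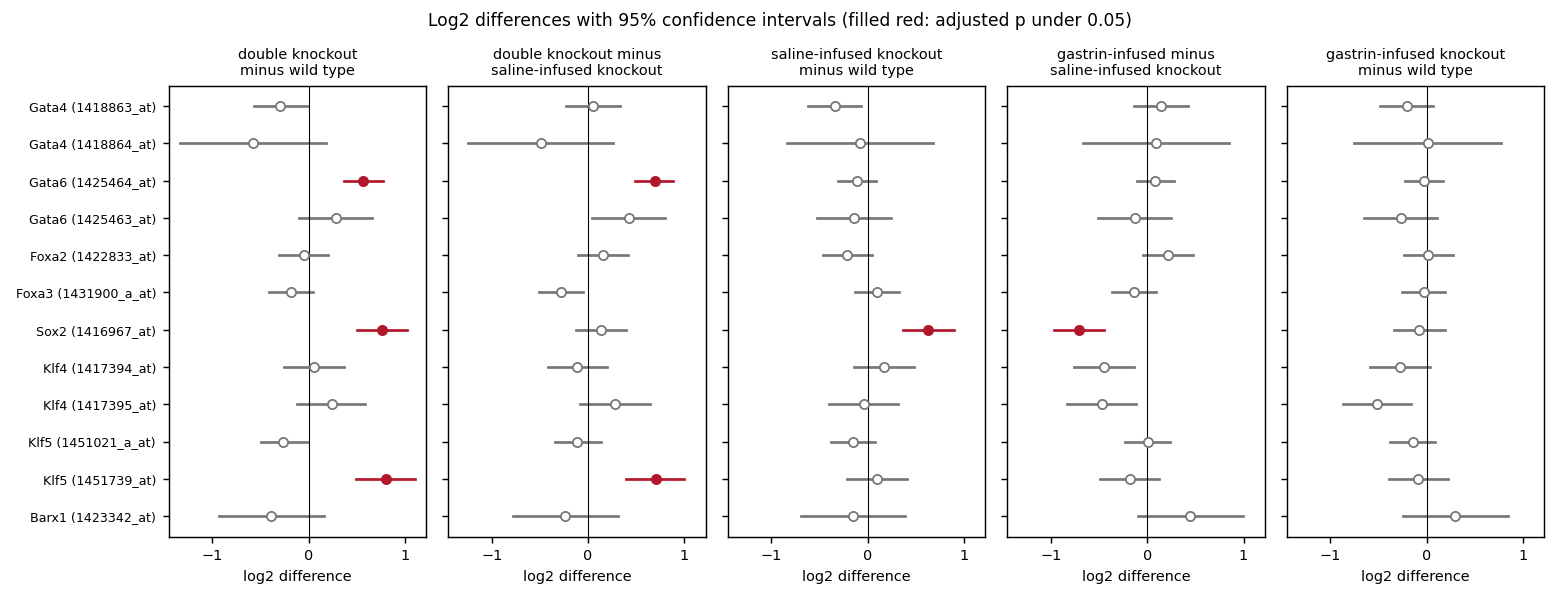
Log2 difference with its 95% interval for each member probe set in each of the 5 comparisons of 2 groups, filled where the adjusted p is under 0.05. Sox2 is called in 3 comparisons, Gata6 1425464_at and Klf5 1451739_at in 2, and no member in knockouts given gastrin against wild type.

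The members did not form 1 pattern across arrays. Gata6 1425464_at and Klf5 1451739_at ran closely together (r = 0.86 over 12 arrays), Sox2 correlated with the same Klf5 probe set at 0.66 and with Gata4 1418863_at at -0.61, and Foxa2 with Foxa3 at 0.16. These correlations carry the group differences, and all come from the same 12 arrays. Among all probe sets at or above the median level, the patterns most like Gata6 were those of Deptor (r = 0.969), Pabpc1 (0.963) and Zfp24 (0.963), and those most like Gata4 were Ogdh (0.963), Mgat1 (0.945) and Phf23 (0.941). Klf4 was most like Trim25 (0.934), Helz2 (0.933) and Foxn2 (0.931), and Foxa3 most like Tpm3 (0.954), Noct (0.951) and Tprgl (0.946). For Foxa2 the closest was Higd2a (0.869), for the brighter Klf5 probe set Timm44 (0.88) and for Barx1 Mrps36 (0.932). Sox2 lay below the median level and outside that rule. Its closest patterns, looked up after its values were seen, were Galnt7 (0.925), Pigr (0.923) and Epsti1 (0.921).

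Of 84 other transcription factor genes in 7 lists, 74 were measured, with 138 probe sets. Taking the brightest probe set of a gene, 2 of 74 (2.7%) passed in knockouts given saline against wild type, 2 for gastrin against saline infusion, 2 in the double knockout against wild type and 7 of 74 (9.46%) in the double knockout against knockouts given saline, where 2.08%, 1.25%, 4.14% and 5.98% of all probe sets were called. Over all 138 probe sets of these genes, 7 passed in the double knockout against wild type, all higher, and 21 (15.2%) in the double knockout against knockouts given saline, 18 higher and 3 lower. Probe sets of 1 gene are not separate pieces of evidence. Foxp1 alone gave 4 of the 7. Of the 21, Foxp1 and Sox4 gave 4 each, Klf9 gave 3, and Sox9 and Xbp1 gave 2 each. In knockouts given gastrin against wild type 0 passed by limma. There 11 of 74 had an unadjusted p under 0.05, against 11.6% of all probe sets. The median log2 differences of the 74 genes in these comparisons were 0.14, 0.0, 0.03, -0.04 and 0.07, against 0.0 over all probe sets in each. By brightest probe set, 4 of 74 (5.41%) passed in the groups without gastrin against those with it. There 4.58% of all probe sets were called.

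Ehf, an epithelial ETS factor of the foregut list, was high on the arrays without gastrin in its brightest probe set of 3. This probe set (1451375_at) read 677, 689 and 856 in the double knockout, 559, 549 and 561 after gastrin infusion, 1066, 787 and 1050 after saline infusion, and 528, 487 and 504 in wild type. All 6 arrays without gastrin were above the 6 with it. Ehf rose 1.89-fold after saline infusion against wild type (log2 0.92 ± 0.13, limma adjusted p = 0.0145) and fell by 0.79 on the log2 scale with gastrin against saline infusion (limma, adjusted p = 0.0316). That second call held in 6 of 12 fits that left out an array, with a highest adjusted p of 0.0963. A dimmer Ehf probe set (1419474_a_at) read 110 to 171 in the double knockout, 85 to 136 after gastrin infusion, 225 to 273 after saline infusion and 140 to 176 in wild type. It was called lower with gastrin against saline infusion (-1.19 ± 0.20, limma adjusted p = 0.0346) and in the double knockout against knockouts given saline (-0.83 ± 0.20, limma adjusted p = 0.0469). By brightest probe set, 1 of 12 measured genes of the foregut list was called in each of these comparisons. It was Ehf after saline infusion against wild type and with gastrin against saline infusion. In the double knockout against knockouts given saline it was Elf3, a relative of Ehf. Elf3 was lower there by -0.44 ± 0.11 (limma, adjusted p = 0.0496), a call that held in 2 of 12 fits that left out an array. After quantile normalization the Elf3 difference became -0.23 (limma, adjusted p = 0.134).

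Among the other SOX genes (11 measured), Sox9, a factor of epithelial progenitor cells, and Sox4 were higher in the double knockout than in knockouts given saline. Sox9 (1424950_at) read 1055, 903 and 639 in the double knockout and 439, 420 and 286 after saline infusion, with 587, 785 and 519 in wild type. Its 2 probe sets rose by 1.18 ± 0.24 and 1.08 ± 0.16 on the log2 scale (limma, adjusted p = 0.0254 and 0.00939). The brightest Sox4 probe set (1433575_at) read 2214, 2276 and 3361 in the double knockout, 1629, 1526 and 1670 after saline infusion, and 2883, 3097 and 3105 in wild type. It fell by 0.91 on the log2 scale after saline infusion against wild type (limma, adjusted p = 0.0334), where 1 of 6 Sox4 probe sets passed. It was 0.68 ± 0.17 higher in the double knockout than after saline infusion (limma, adjusted p = 0.0496), where 4 of 6 Sox4 probe sets passed. These 2 calls held in 5 and 1 of 12 fits that left out an array. After quantile normalization the 2 differences became -0.88 (adjusted p = 0.0595) and 0.66 (adjusted p = 0.0998).

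Among the other forkhead genes (6 measured), Foxp1 had 4 of 7 probe sets higher in the double knockout than in wild type. Its brightest (1435222_at) read 2228, 2724 and 2649 in the double knockout and 1339, 1388 and 1326 in wild type, a rise of 0.90 ± 0.15 on the log2 scale (limma, adjusted p = 0.0165). Foxp1 also passed the difference of differences, in 3 of 7 probe sets, at 1.14 ± 0.21 for the brightest (limma, adjusted p = 0.0493), a value that was called in 1 of 12 fits that left out an array. Foxa1, the paralog of Foxa2 and Foxa3, read 8293, 8960 and 8073 in the double knockout and 6011, 6659 and 5765 after saline infusion, a rise of 0.46 ± 0.08 (limma, adjusted p = 0.0123). Foxj1, a factor of motile cilia, was higher in the groups without gastrin than in those with it by 1.19 ± 0.24 (limma, adjusted p = 0.0289), with values of 246 to 380 in the double knockout and 309 to 380 after saline infusion, against 74 to 202 after gastrin infusion and 137 to 210 in wild type. The Foxj1 call held in 4 of 12 fits that left out an array.

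Among the other KLF genes (11 measured), Klf3 (1429360_at) read 3753, 4798 and 3302 in the double knockout, 2287, 1748 and 1787 after gastrin infusion, 2363, 2341 and 2219 after saline infusion, and 1997, 2338 and 2057 in wild type. It rose by 0.88 ± 0.15 in the double knockout against wild type (limma, adjusted p = 0.0187) in 1 of 3 probe sets, a call that held in 9 of 12 fits that left out an array. Klf9 had 3 of 7 probe sets higher in the double knockout than in knockouts given saline, by 0.71 to 1.04 on the log2 scale (limma, adjusted p = 0.00789 to 0.0273). Of these, 1456341_a_at read 5127, 5173 and 4258 in the double knockout, 2938, 2513 and 3081 after gastrin infusion, 2894, 2854 and 2561 after saline infusion, and 2911, 3304 and 2631 in wild type, and it also rose against wild type (0.72 ± 0.12, limma adjusted p = 0.0176). The brightest Klf9 probe set (1428288_at) was called in no comparison. Klf13 rose in 1 of 3 probe sets against knockouts given saline, 2.22-fold with a 95% interval of 1.47 to 3.36 (limma, adjusted p = 0.0373, called in 1 of 12 fits that left out an array). For Klf6, 1 of 3 probe sets passed only the test of any difference among the groups (limma F test, adjusted p = 0.0453). Klf15, a glucocorticoid-induced factor, read 658, 879 and 685 after gastrin infusion and 463, 437 and 473 after saline, a rise of 0.68 ± 0.12 (limma, adjusted p = 0.0369). That call held in 2 of 12 fits that left out an array, up to an adjusted p of 0.0963. In the list of gastric lineage factors (17 measured), Creb3l4 rose by 1.21 ± 0.15 in the double knockout against knockouts given saline (limma, adjusted p = 0.00517), and Spdef, a factor of mucous cells, was lower without gastrin by -0.28 ± 0.07 (limma, adjusted p = 0.0494, called in 1 of 12 fits that left out an array). For Xbp1, a factor of secretory cells, the probe sets disagreed in the double knockout against knockouts given saline. Of 4, 1420886_a_at rose by 1.17 ± 0.13 (limma, adjusted p = 0.00361), which held in 12 of 12 fits that left out an array. Probe set 1420012_at fell by 0.88 on the log2 scale (limma, adjusted p = 0.0468), which held in 1 of 12 such fits. After quantile normalization its difference was -0.92 (limma, adjusted p = 0.0514). Probe set 1420886_a_at also rose against wild type, by 0.96 ± 0.13 (limma, adjusted p = 0.00918). It passed the difference of differences (limma, adjusted p = 0.0404), which held in 1 of 12 such fits.

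The 6 other genes of the GATA family and its partners had no call in any comparison, and neither had the 11 measured mesenchymal factors listed with Barx1. In the GATA list the widest difference above the noise was that of Gata1, at 0.73 ± 0.37 after saline infusion against wild type (limma, adjusted p = 0.333). In the mesenchymal list it was that of Tcf21, which read a mean of 151 after saline infusion and 297.7 in wild type, a difference of -1.02 ± 0.40 (limma, adjusted p = 0.227).

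**Figure D4:**
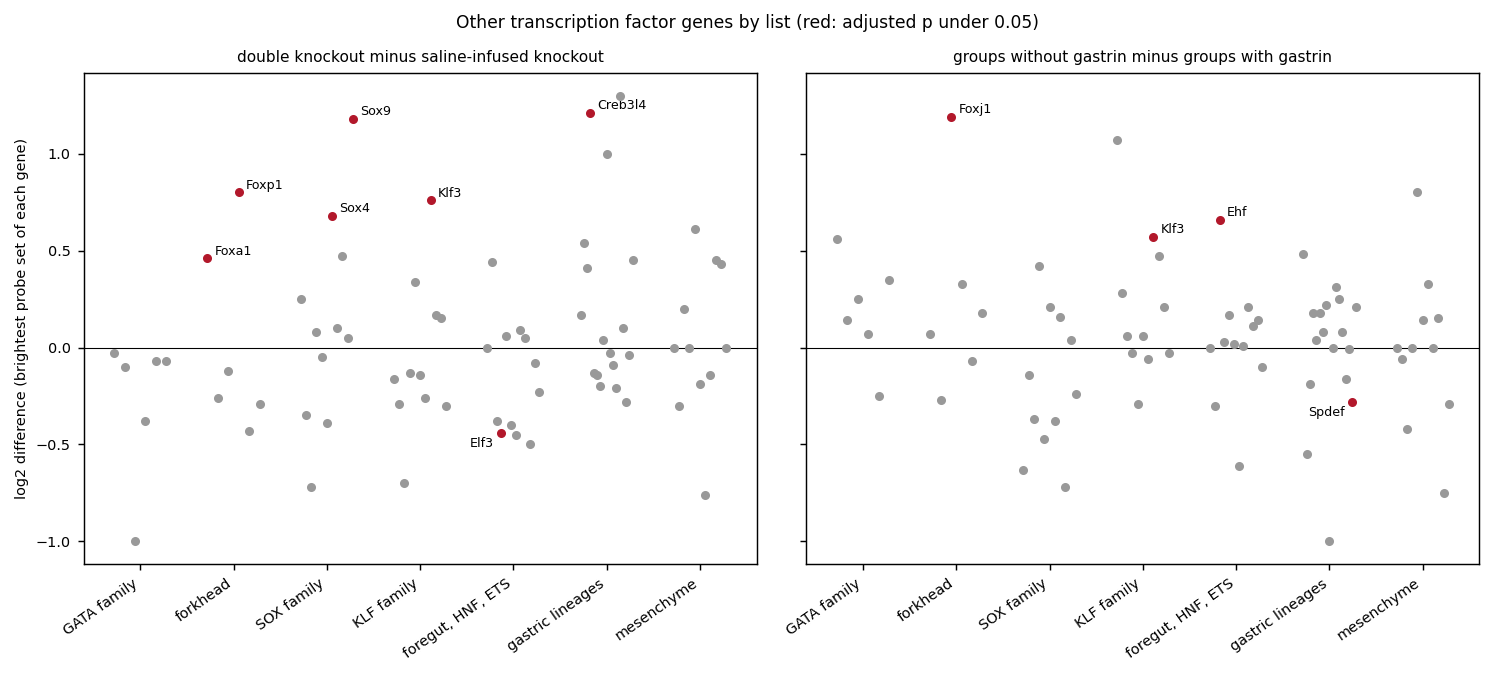
Log2 difference of the brightest probe set of each of 74 other transcription factor genes, by list, in the double knockout minus knockouts given saline (left) and in the groups without gastrin minus those with it (right), in red where the adjusted p is under 0.05. The left panel holds 7 called genes of 74 (9.46%), where 5.98% of all probe sets were called. The right panel holds 4 (5.41%), where 4.58% of all were called. The GATA and mesenchymal lists have none.

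Of 10 genes reported as targets of the member factors, 9 were measured. Atp4a, the proton pump subunit reported as a GATA target, averaged 39921 in the double knockout, 58696 after gastrin infusion, 38737 after saline infusion and 60910 in wild type. It fell by 0.66 on the log2 scale after saline infusion against wild type (limma, adjusted p = 0.0256). With gastrin against saline infusion it rose by 0.61 ± 0.11 (limma, adjusted p = 0.0393), a call that held in 3 of 12 fits that left out an array. Gata4 and Gata6 passed in neither comparison. In the same order, Gata4 1418863_at differed by -0.34 (95% interval -0.62 to -0.07) and 0.14 (-0.14 to 0.42). Gata6 1425464_at differed by -0.11 (-0.31 to 0.09) and 0.08 (-0.11 to 0.28). The part of GATA factors in the Atp4a values was not tested.

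In the double knockout against wild type 4 of the 9 targets fell: Atp4a, Atp4b, and the surface mucous genes Muc5ac and Tff1. Their differences were -0.61, -0.68, -0.66 and -0.52 on the log2 scale (limma, adjusted p = 0.0229, 0.00802, 0.0145 and 0.0369). All 4 lie in the bright range that was compressed on the double-knockout arrays, and after quantile normalization they were -0.18, -0.13, -0.21 and 0.03 with no call. Tff2, the trefoil peptide of mucous neck cells, was likewise -0.46 lower in the double knockout than after saline infusion (limma, adjusted p = 0.0158) and 0.03 after quantile normalization. In the groups without gastrin against those with it, Atp4a and Atp4b were lower by -0.61 ± 0.08 and -0.55 ± 0.06 (limma, adjusted p = 0.00668 and 0.005), and after quantile normalization by -0.42 and -0.29 (adjusted p = 0.00593 and 0.0305). Shh, a target reported for Sox2 and the GATA factors in other tissues, averaged 223.7 in the double knockout, 204 after gastrin infusion, 338 after saline infusion and 285.7 in wild type, and passed in no comparison. Cdh1 likewise passed in none, with a smallest adjusted p of 0.0867.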

How the data were processed

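The authors deposited linear intensities, whole numbers of which some are below 0. How they were scaled and probes summarised is not given in the sources used here. Leaving out 64 controls of 22690 gave 22626 probe sets, of which 20380 had 1 gene symbol, 691 several and 1555 none in the probe table, with 12393 distinct symbols. Gene identifiers of 20351 matched RefSeq GRCm38.p6, which served for names, overlapping genes and promoter windows (5 of 8 members had one).

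Values under 16 were raised to 16 and log2 was taken, with no further scaling. All 12 arrays entered a single fit with 4 group means (limma 3.58.1, R 4.3.3, 8 residual and 1.1 prior degrees of freedom). P-values were Benjamini-Hochberg adjusted over 22626 probe sets, and under 0.05 was called. The members, gene lists, marker lists and tests were chosen with earlier results of these data known. Members were named whatever their result. Other genes were named by a rule: those with a called probe set in any comparison, and up to 3 with the largest change in lists with none (here the largest above the noise). Figures used Python 3.11.15 and matplotlib 3.10.9.

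The fit was tested on simulated data in the 5 comparisons of 2 groups. In each, 50 of 22626 probe sets were changed at each fold size, none of them among the dimmest. The fit recovered 0 to 2% of 1.2-fold changes, 16 to 32% of 1.5-fold changes and 50 to 78% of 2-fold changes. Recovery depends on how many probe sets change, which is not known for these data. Of the simulated calls, 3.8 to 8.74% were false. The number of arrays, 3 a group, limits the precision. The alternatives were quantile, cyclic loess (chosen after seeing the data) and median scaling, a filter at the median level, floors of 1 and 64, a replicate block, the Gapdh 3′ to 5′ ratio as a covariate, fits of 2 groups alone, and leaving out each array.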

Additional observations from a re-analysis of the deposited data

How the results depend on the processing

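The number of member probe sets called moved as follows. In saline-infused knockouts against wild type it was 1, and 0 under the filter at the median level (Sox2 lies below it and was not tested), the replicate block, the Gapdh covariate and the fit of 2 groups alone, and 0 to 1 when 1 array was left out. For gastrin against saline infusion it was 1, and 0 under the filter, the replicate block and the fit of 2 groups, and 0 to 1 when 1 array was left out. In the double knockout against wild type it was 3, and 0 in the fit of 2 groups, 2 under the filter, 4 with the Gapdh covariate and 2 to 3 when 1 array was left out. In the double knockout against saline-infused knockouts it was 2, and 1 with the Gapdh covariate, 0 in the fit of 2 groups and 1 to 2 when 1 array was left out. For groups without against groups with gastrin it was 2, and 4 after quantile normalization, 3 after cyclic loess, with a floor of 64 or with the Gapdh covariate, and 1 to 2 when 1 array was left out. For the difference of differences it was 0, and 1 after quantile or cyclic loess normalization, under the filter or a floor of 64, and 0 to 1 when 1 array was left out. For any difference among the groups it was 3, and 4 after quantile or cyclic loess normalization or with the Gapdh covariate, and 2 to 4 when 1 array was left out. The fit of 2 groups has fewer arrays. The cause of the other moves was not tested.

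Sox2 in groups without against groups with gastrin was called in 19 of 19 alternatives, at 0.68 to 0.77 (adjusted p 0.00343 to 0.0165). Gata6 1425464_at was called in 20 of 21 in both double-knockout comparisons, and Klf5 1451739_at in 17 of 21 against wild type, 15 of 21 against saline-infused knockouts and 13 of 20 without against with gastrin. Calls over all probe sets, including the sets with 1 array left out, ranged from 22 to 815 (main 470) in saline-infused knockouts against wild type and from 20 to 701 (282) for gastrin against saline infusion. They ranged from 43 to 1302 (936) in the double knockout against wild type, from 208 to 1809 (1352) against saline-infused knockouts, and from 3 to 73 (25) in gastrin-infused knockouts against wild type. The ranges were 482 to 1472 (1037) without against with gastrin, 706 to 2614 (1742) for any difference and 31 to 511 (181) for the difference of differences.

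Replicate numbers did not pair the samples: deviations of same-numbered samples correlated at -0.354 to 0.502 (median 0.00992, n = 18), others at -0.375 to 0.408 (n = 36). With the replicate block Sox2 was 0.63 (adjusted p = 0.0679) in saline-infused knockouts against wild type and -0.71 (adjusted p = 0.0621) for gastrin against saline infusion, and no other member call was lost.

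The differences that changed sign were all uncalled. With the Gapdh covariate Klf4 1417395_at became 0.06 after saline infusion against wild type, Klf5 1451021_a_at 0.0 for gastrin against saline infusion (also under median centring), Gata4 1418864_at -0.4 and Foxa3 0.05 in gastrin-infused knockouts against wild type, and Foxa3 0.02 without against with gastrin. After quantile normalization Klf4 1417394_at became 0.11 in the double knockout against saline-infused knockouts (0.08 with cyclic loess), Gata6 1425464_at 0.01 in gastrin-infused knockouts against wild type (0.01 with cyclic loess) and Sox2 0.0 in the difference of differences. Foxa3 became 0.01 with cyclic loess without against with gastrin. When 1 array was left out, values in saline-infused knockouts against wild type spanned -0.45 to 0.37 for Gata4 1418864_at, -0.12 to 0.06 for Klf4 1417395_at, -0.04 to 0.22 for Klf5 1451739_at and -0.3 to 0.1 for Barx1. Klf5 1451021_a_at spanned -0.06 to 0.12 for gastrin against saline infusion. In the double knockout, Foxa2 spanned -0.15 to 0.05 and Klf4 1417394_at -0.04 to 0.12 against wild type, and Gata4 1418863_at -0.08 to 0.15 against saline-infused knockouts. In gastrin-infused knockouts against wild type, Gata4 1418864_at spanned -0.36 to 0.46, Gata6 1425464_at -0.08 to 0.02, Foxa2 -0.02 to 0.06, Foxa3 -0.1 to 0.06 and Sox2 -0.18 to 0.03. Foxa3 spanned -0.06 to 0.02 without against with gastrin, and in the difference of differences Sox2 spanned -0.06 to 0.16 and Barx1 -0.19 to 0.25. With 3 arrays a group, a member that missed the threshold is not shown to be unchanged.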
